A study of Mus musculus with 9 samples.

Results

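Intraflagellar transport (IFT) and BBSome genes were examined in B.END3 cells, an endothelial cell line from mouse brain, after porfimer sodium-mediated photodynamic therapy (PDT). Members were the listed genes named Ift or Bbs with a number, plus Ttc8, Ttc21b, Traf3ip1, Wdr19, Wdr35, Cluap1, Arl6, Arl13b and Tulp3. This rule found 31 genes (14 Ift, 8 Bbs and 9 with other names) among the 54532 genes listed. The rule used names alone and no measured value, but the members were chosen with earlier results of these data known.

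RNA sequencing covered 9 libraries, 3 in each of 3 groups. Ctrl cells were untreated, and whether they received the drug without light or a sham exposure is not given. Ep1 and Ep2 cells were incubated as a monolayer with porfimer sodium, a porphyrin photosensitizer, at 300 μg/mL for 90 min and then exposed to a laser of 635 nm at 100 mW/cm2. The light dose was 10 J/cm2 in Ep1 and 20 J/cm2 in Ep2, and the time from light to lysis is not given. All groups were the same cell line, labelled as strain C57BL/6, and separate cultures are not stated, so p-values measure the spread between these libraries, which may be technical. Levels are in FPKM, fragments scaled by gene length and by the total of the library, so they can be compared between genes. Between 16240688 and 19509225 fragments were counted on genes per library. The FPKM values gave back whole fragments, and 11 to 1460 of them stood behind a member's value in a library.

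Several markers that define endothelium were absent from these libraries. Erg, Emcn, Sox17 and Robo4 were listed at 0 in all 9 libraries and Cldn5 in 8 of them, while Pecam1 lay between 0.0821 and 0.242 FPKM and Cdh5 between 0.524 and 1.09 FPKM. Of 15 endothelial markers, 3 passed the filter used below (Flt1, Eng and Egfl7). Of 9 epithelial markers 4 passed it: Krt8 (562 to 714 FPKM), Krt18 (230.5 to 332 FPKM), Krt19 (135 to 324 FPKM) and Epcam (0.607 to 2.03 FPKM). The others did not pass: Cdh1 reached 0.103 FPKM at most, Cldn3 0.128 FPKM and Cldn4 0.177 FPKM. Krt7 and Esrp1 were at 0 in all 9 libraries. The labels also call the line rat in the culture text and mouse as organism.

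Cilia are microtubule-based protrusions that sense flow and signals, and a single primary cilium can form on many cell types, endothelial cells included, when they leave the cell cycle. IFT trains build and maintain it: the IFT-B complex, pulled by kinesin, carries cargo to the tip, and the IFT-A complex, pulled by cytoplasmic dynein, serves the way back and the entry of membrane proteins. The BBSome, an octameric coat named after Bardet-Biedl syndrome, rides on IFT trains and takes membrane proteins out of the cilium.

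The start sites of 27 of the 31 genes had a promoter entry in RefSeq (GRCm38.p6) within 500 bases of the listed gene start. The others were Ift80, Ift81, Ift122 and Ift46. The 250 bases before the start are printed for the 4 genes with the smallest adjusted p between Ep2 and Ctrl among those with an entry, since 3 of them fell in Ep2 and Ift20 rose. Traf3ip1 lies at chr1:91494418-91494667 (plus strand), Ift20 at chr11:78536111-78536360 (plus strand), Ift27 at chr15:78174082-78174331 (minus strand) and Ttc21b at chr2:66256618-66256867 (minus strand). Each line reads 5′ to 3′ toward the gene, and capitals mark the letters GTTGCC, a half-site bound by RFX factors, the main transcription factors of cilium genes.
Traf3ip1: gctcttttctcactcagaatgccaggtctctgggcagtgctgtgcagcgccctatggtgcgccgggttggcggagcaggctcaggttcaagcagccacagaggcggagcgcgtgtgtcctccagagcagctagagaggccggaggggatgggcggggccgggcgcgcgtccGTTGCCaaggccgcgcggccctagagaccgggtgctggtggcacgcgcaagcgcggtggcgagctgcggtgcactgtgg
Ift20: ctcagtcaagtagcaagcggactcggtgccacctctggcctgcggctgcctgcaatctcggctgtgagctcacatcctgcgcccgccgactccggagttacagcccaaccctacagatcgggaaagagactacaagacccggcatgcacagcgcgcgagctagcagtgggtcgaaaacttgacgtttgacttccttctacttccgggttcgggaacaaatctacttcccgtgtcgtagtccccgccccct
Ift27: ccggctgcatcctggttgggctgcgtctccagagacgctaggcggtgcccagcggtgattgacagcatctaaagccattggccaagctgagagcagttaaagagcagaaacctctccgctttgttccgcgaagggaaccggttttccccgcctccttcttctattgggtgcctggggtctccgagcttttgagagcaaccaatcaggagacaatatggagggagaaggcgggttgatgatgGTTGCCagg
Ttc21b: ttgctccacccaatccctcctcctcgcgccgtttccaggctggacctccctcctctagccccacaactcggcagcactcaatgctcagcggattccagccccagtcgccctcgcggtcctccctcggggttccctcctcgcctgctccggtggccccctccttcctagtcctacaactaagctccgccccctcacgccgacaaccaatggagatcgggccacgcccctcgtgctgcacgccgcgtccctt

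GTTGCC, searched on both strands, occurred in 6 of the 27 member promoters (22.2%) and in 10.8% of the 7389 promoters of tested genes. It stood 79 to 74 bases before the start of Traf3ip1 and 9 to 4 bases before that of Ift27, and was not in the windows of Ift20 and Ttc21b. Of the 12 members with an entry that fell in Ep2, 5 held it, and none of the 3 that rose did. The X-box, the full RFX site with a pair of half-sites, was found in 1 member promoter, that of Ift57, against 1.41% of tested genes. The Ift57 window (chr16:49699044-49699293, plus strand) was chosen after its matches were seen and is printed with the 2 X-box matches in capitals, each of which holds a GTTGCC.
Ift57: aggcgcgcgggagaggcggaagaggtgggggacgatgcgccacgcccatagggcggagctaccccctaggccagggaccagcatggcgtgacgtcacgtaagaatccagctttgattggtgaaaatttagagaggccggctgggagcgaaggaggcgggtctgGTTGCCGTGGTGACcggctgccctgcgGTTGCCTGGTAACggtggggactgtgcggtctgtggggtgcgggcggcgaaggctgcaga

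Matches are a description of letters in these windows. The median GC content was 59.6% in the member promoters and 60.4% in those of tested genes.

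Most IFT and BBSome genes were expressed at low levels. A total of 30 members passed the filter (3 or more libraries with an FPKM of 1 or above), as did 11727 genes in all. The median of the group mean in Ctrl was 4.01 FPKM over these 30 members and 7.84 FPKM over all genes that passed, and 26 of the 30 lay below that second value. Bbs1, a BBSome subunit, did not pass, with 0.106 to 0.291 FPKM (11 to 30 fragments), and was left out of the test.

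**Figure D1:**
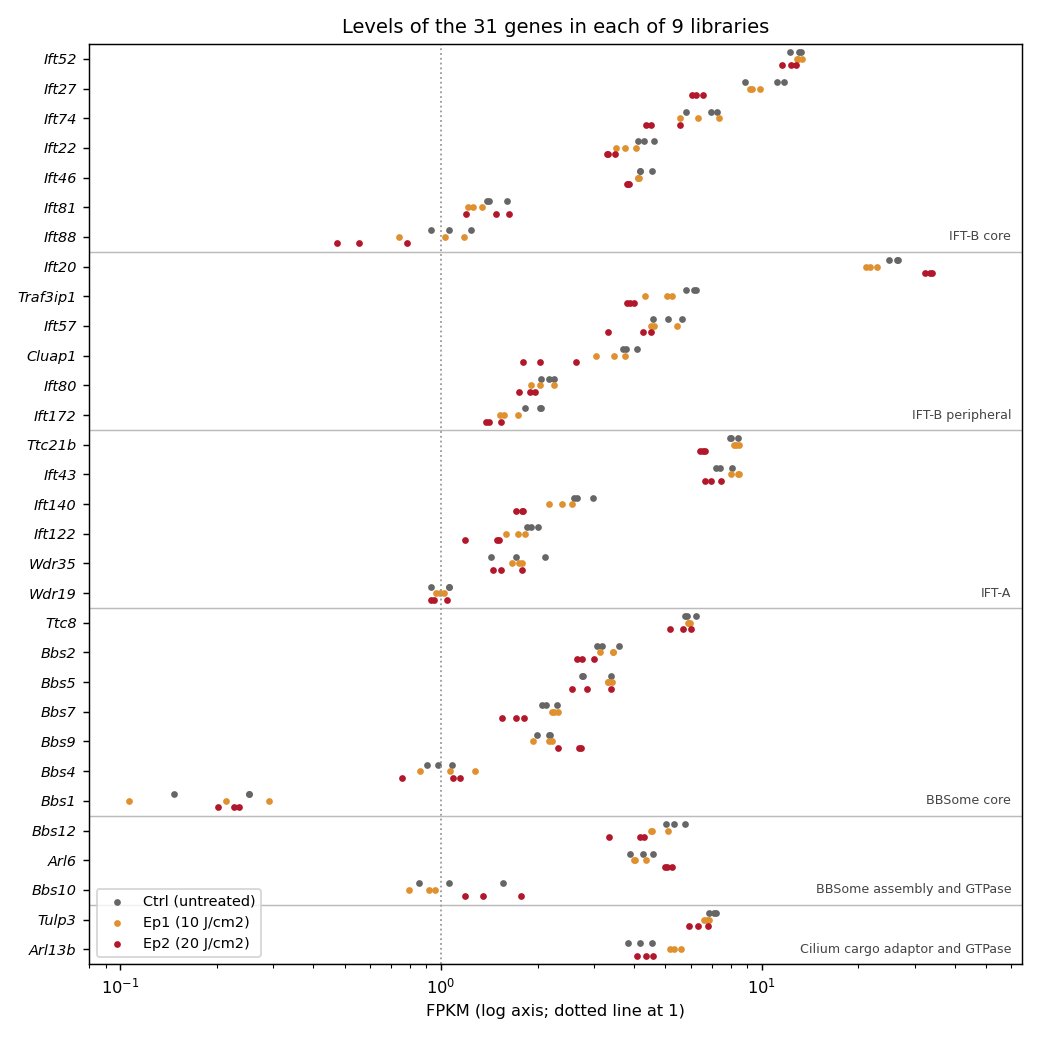
FPKM on a log axis of the 31 genes, 1 point per library, ordered within each role by the mean in Ctrl, with Ctrl in grey, Ep1 in orange and Ep2 in red. Ift20 is the highest gene (21.1 to 34.0 FPKM) and Bbs1 the lowest (0.106 to 0.291 FPKM).

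IFT-B core genes, whose products form the backbone of the train, ranged in Ctrl from Ift52 (mean 12.9 FPKM) and Ift27 (10.6 FPKM) through Ift74 (6.66 FPKM), Ift22 (4.33 FPKM) and Ift46 (4.30 FPKM) to Ift81 (1.47 FPKM) and Ift88 (1.08 FPKM). Peripheral IFT-B genes were led by Ift20 (26.0 FPKM), followed by Traf3ip1 (6.06 FPKM), Ift57 (5.11 FPKM), Cluap1 (3.85 FPKM), Ift80 (2.16 FPKM) and Ift172 (1.97 FPKM). Among IFT-A genes, Ttc21b (8.14 FPKM) and Ift43 (7.57 FPKM) stood above Ift140 (2.74 FPKM), Ift122 (1.92 FPKM), Wdr35 (1.75 FPKM) and Wdr19 (1.01 FPKM). Subunits of one complex did not share a level.

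The BBSome subunits had means in Ctrl of 5.94 FPKM for Ttc8, 3.28 FPKM for Bbs2, 2.97 FPKM for Bbs5, 2.16 FPKM for Bbs7, 2.12 FPKM for Bbs9, 0.988 FPKM for Bbs4 and 0.216 FPKM for Bbs1. Bbs12 and Bbs10, chaperonin-like proteins that help assemble the BBSome, stood at 5.38 and 1.15 FPKM, and Arl6, the GTPase that recruits the BBSome to membranes, at 4.23 FPKM. Tulp3, an adaptor that brings membrane receptors in with IFT-A, had 7.04 FPKM, and Arl13b, a GTPase of the ciliary membrane, 4.17 FPKM.

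The comparison of Ep1 with Ctrl sets PDT at the lower light dose against untreated cells. Drug and light cannot be told apart in it. A total of 3 of the 30 tested members were called (limma, Benjamini-Hochberg adjusted p below 0.05), with Arl13b higher and Ift20 and Traf3ip1 lower, while 11.3% of all tested genes were called (6.32% higher and 4.97% lower). The median log2 fold change on the log2(FPKM + 1) scale was -0.05 over the members and -0.01 over all tested genes, and 22 of 30 members against 52.4% of tested genes had a negative value. The member median was -0.02 without Ctrl replicate 3 and -0.03 without Ep1 replicate 1. Negative values numbered 17 of 30 without Ctrl replicate 3 and 19 without Ctrl replicate 1 or Ep1 replicate 1. They numbered 22 or 23 without any other library of these groups, so the count depended on single libraries. No member passed an absolute log2 fold change of 0.6 in Ep1, where 0.793% of tested genes were called beyond it.

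Arl13b was present at 3.82, 4.17 and 4.53 FPKM in Ctrl and at 5.60, 5.33 and 5.18 FPKM in Ep1. The groups did not overlap, and the log2 fold change was 0.30 (SE 0.065, adjusted p = 0.0223). Ep2, at 4.35, 4.08 and 4.58 FPKM, lay within the range of Ctrl or just above it.

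Ift20, which is the IFT-B subunit also found at the Golgi apparatus, was present at 24.9, 26.5 and 26.4 FPKM in Ctrl and at 21.1, 22.9 and 21.8 FPKM in Ep1. Every Ep1 library was below every Ctrl library (log2 fold change -0.23, SE 0.046, adjusted p = 0.0161). Traf3ip1, the IFT-B subunit known as IFT54 that binds microtubules, fell from 5.78, 6.16 and 6.25 FPKM to 4.32, 5.25 and 5.08 FPKM (log2 fold change -0.27, SE 0.067, adjusted p = 0.0358).

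All 3 calls of Ep1 depended on single libraries. The Ift20 call was lost without Ctrl replicate 2 (adjusted p = 0.0783), Ep1 replicate 1 (adjusted p = 0.0623) or Ep1 replicate 3 (adjusted p = 0.0676) in limma fits. The Arl13b call was lost without any one library of these groups except Ctrl replicate 3 (adjusted p from 0.0536 to 0.0875), and the Traf3ip1 call without any one except Ep1 replicate 2 (adjusted p from 0.0740 to 0.128).

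The other 27 tested members had log2 fold changes between -0.19 and 0.13 in Ep1 and were not called. Libraries did not overlap between Ep1 and Ctrl for 1 member above Ctrl and 8 below it, against 20.8% and 20.5% of tested genes.

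The comparison of Ep2 with Ctrl sets PDT at the higher light dose against untreated cells, and again drug and light cannot be told apart. IFT-B and IFT-A genes fell more often than they rose, led by Ift27, Cluap1, Traf3ip1 and Ift140, whereas Ift20, Arl6 and Bbs9 rose. Of the 30 tested members, 14 were lower (46.7%) and 3 higher, while 29.3% of all tested genes were lower and 23.9% higher. The 17 called members were 56.7% of those tested, near the 53.2% of all tested genes called in either direction. The median log2 fold change was -0.14 over the members and -0.03 over all tested genes, and 24 of 30 members against 53.4% of tested genes had a negative value. With median centring, which moved the median of all tested genes to 0.02, that of the members was -0.09 and 21 were negative, and with the filter at 5 FPKM, which left 12 members, it was -0.20. With the threshold for DEGs that the study set (absolute log2 fold change above 0.6), Ift27 and Cluap1 remained, 6.67% of the members against 9.17% of tested genes. This count depended on the scale and on the libraries. In fits combined with this threshold after the data were seen, a pseudocount of 0.1 and voom on recovered fragments each gave 5 members (Traf3ip1, Ift140 and Ift88 in addition), against 13.8% and 15.7% of tested genes. Median centring and the omission of Ep2 replicate 1 each left 1 (Ift27), and a gene length correction and the omission of Ctrl replicate 1 left 0, with 8.89% and 8.95% of tested genes still beyond it.

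**Figure D2:**
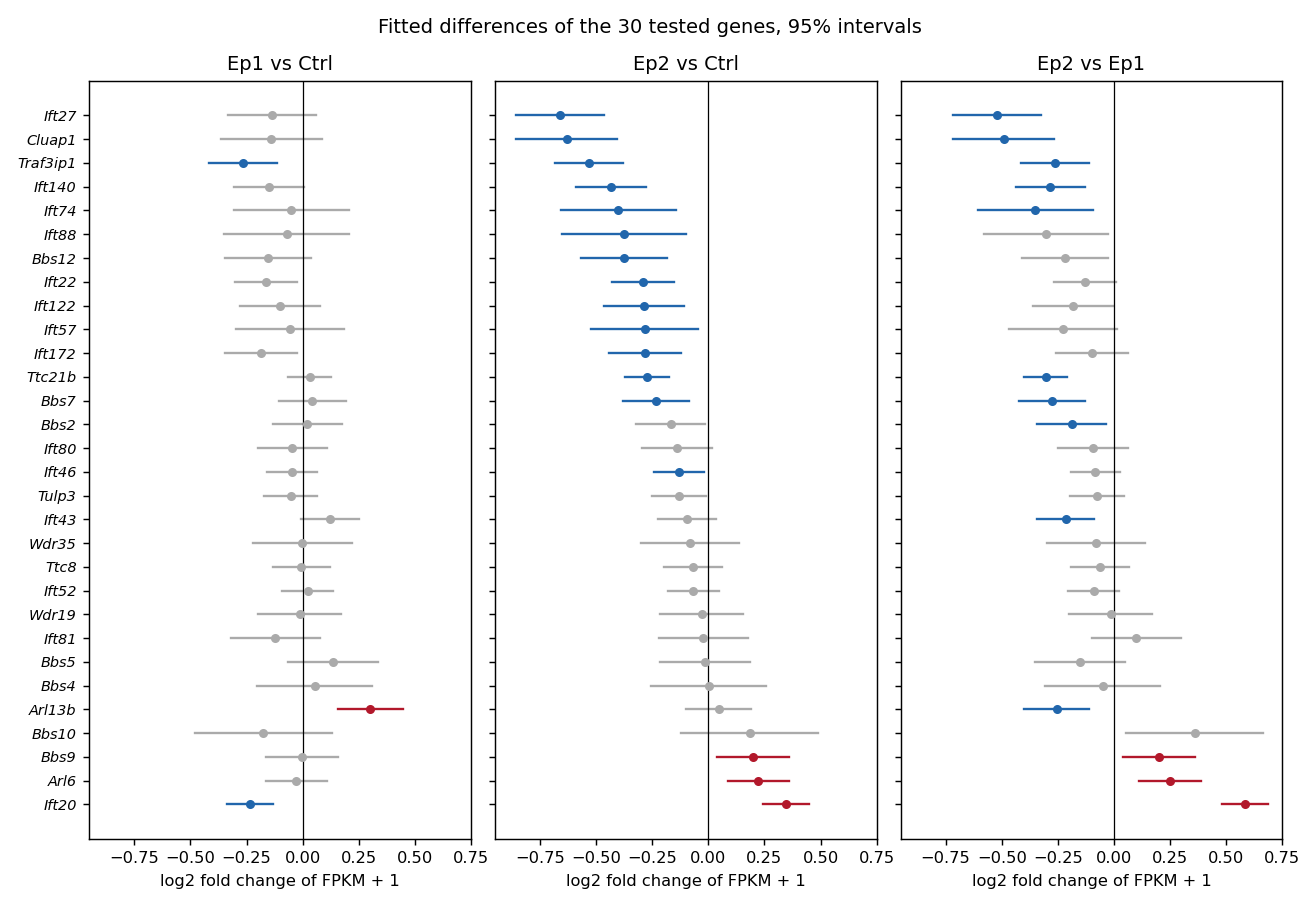
Log2 fold changes of FPKM + 1 for the 30 tested genes in the 3 comparisons, in the order of Ep2 against Ctrl, as points with 95% intervals from limma. Blue marks genes called lower, red genes called higher and grey genes not called; blue points number 2, 14 and 10 and red points 1, 3 and 3 from the left panel to the right.

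In the IFT-B core, 5 of 7 genes fell in Ep2, beside 29.3% of all tested genes. All 7 had negative values (6 with median centring or a gene length correction), with a median log2 fold change of -0.29. Ift27, a Rab-like GTPase of the train that is also needed for BBSome exit from cilia, was present at 11.7, 11.1 and 8.88 FPKM in Ctrl and at 6.58, 6.05 and 6.24 FPKM in Ep2. Its Ctrl libraries were spread more widely than its Ep2 libraries, and the groups did not overlap (log2 fold change -0.66, SE 0.087, adjusted p = 0.000214). Ep1, at 9.32, 9.18 and 9.89 FPKM, lay inside the range of Ctrl.

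Ift22, another Rab-like GTPase of the train, fell from 4.11, 4.28 and 4.61 FPKM to 3.30, 3.48 and 3.30 FPKM (log2 fold change -0.29, SE 0.061, adjusted p = 0.00330). Its Ep1 libraries, at 4.05, 3.73 and 3.52 FPKM, lay between both groups. Ift52, the most abundant core gene, did not pass the test, with 13.1, 12.2 and 13.2 FPKM in Ctrl, 13.4, 12.9 and 12.9 FPKM in Ep1 and 11.6, 12.3 and 12.8 FPKM in Ep2 (log2 fold change -0.07, SE 0.050, adjusted p = 0.287). Ctrl and Ep2 overlapped for it.

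The remaining calls of the core were less firm. Ift74, which pairs with Ift81 to bind tubulin, had 5.79 to 7.24 FPKM in Ctrl and 4.35 to 5.58 FPKM in Ep2 (log2 fold change -0.40), and its limma call was lost without Ctrl replicate 1 (adjusted p = 0.0560) or Ep2 replicate 2 (adjusted p = 0.0506). Ift81 itself had 1.39 to 1.60 FPKM and 1.20 to 1.63 FPKM and was not called.

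Ift88, the subunit whose mutation causes polycystic kidneys in mice, had 0.928 to 1.24 FPKM in Ctrl and 0.473 to 0.781 FPKM in Ep2. Its log2 fold change was -0.38 on the log2(FPKM + 1) scale, -0.76 with a pseudocount of 0.1 and -0.87 with voom on recovered fragments, the added 1 being close to its level. The call was lost without Ctrl replicate 1, Ctrl replicate 3, Ep2 replicate 1 or Ep2 replicate 2 (limma, adjusted p from 0.0585 to 0.0968). Ift46 had 4.17 to 4.53 FPKM and 3.81 to 3.87 FPKM (log2 fold change -0.13), and its call was lost without any one of the 6 libraries (limma, adjusted p from 0.0657 to 0.150), with the replicate number as a block (adjusted p = 0.0697), with voom (adjusted p = 0.0760) and with median centring, where the value was -0.08 (adjusted p = 0.177).

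Among the peripheral IFT-B genes, 4 of 6 fell and Ift20 rose, beside 29.3% lower and 23.9% higher of all tested genes. The median log2 fold change of these peripheral genes was -0.28. Ift20 (chr11:78536361-78541737, plus strand, GRCm38) went from 24.9, 26.5 and 26.4 FPKM in Ctrl to 33.5, 34.0 and 32.3 FPKM in Ep2. All Ep2 libraries stood above all Ctrl libraries (log2 fold change 0.35, SE 0.046, adjusted p = 0.000204). It was the only member that was called lower in Ep1 and higher in Ep2, though the Ep1 call depended on single libraries.

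Traf3ip1 went from 5.78, 6.16 and 6.25 FPKM to 3.80, 3.99 and 3.88 FPKM (log2 fold change -0.53, SE 0.067, adjusted p = 0.000166). It was the only member called lower in both treated groups, with Ep1 between Ctrl and Ep2, though the Ep1 call depended on single libraries. Cluap1, the IFT-B subunit known as IFT38, went from 4.07, 3.70 and 3.78 FPKM to 1.80, 2.63 and 2.03 FPKM (log2 fold change -0.63, SE 0.10, adjusted p = 0.000632). Its Ep2 libraries lay below all others. Cluap1 overlaps the listed gene Gm15538 on the same strand, which was at 0.192 to 1.63 FPKM.

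Ift172, the largest subunit of the complex, went from 1.83, 2.04 and 2.05 FPKM to 1.54, 1.38 and 1.41 FPKM (log2 fold change -0.28, SE 0.072, adjusted p = 0.00846), without overlap. With voom on recovered fragments its value was -0.45. Ift57 had 4.58 to 5.63 FPKM in Ctrl and 3.30 to 4.52 FPKM in Ep2 (log2 fold change -0.28), which was -0.18 without Ep2 replicate 3, and its call was lost without Ctrl replicate 2, Ctrl replicate 3, Ep2 replicate 1 or Ep2 replicate 3 (limma, adjusted p from 0.0503 to 0.150). It was also lost with the replicate number as a block (adjusted p = 0.0824), with median centring (adjusted p = 0.0864) and with a gene length correction (adjusted p = 0.141). Ift80 (2.04 to 2.25 FPKM and 1.74 to 1.96 FPKM) was not called, and it overlaps 3 listed genes that passed the filter, so its reads could be split.

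**Figure D3:**
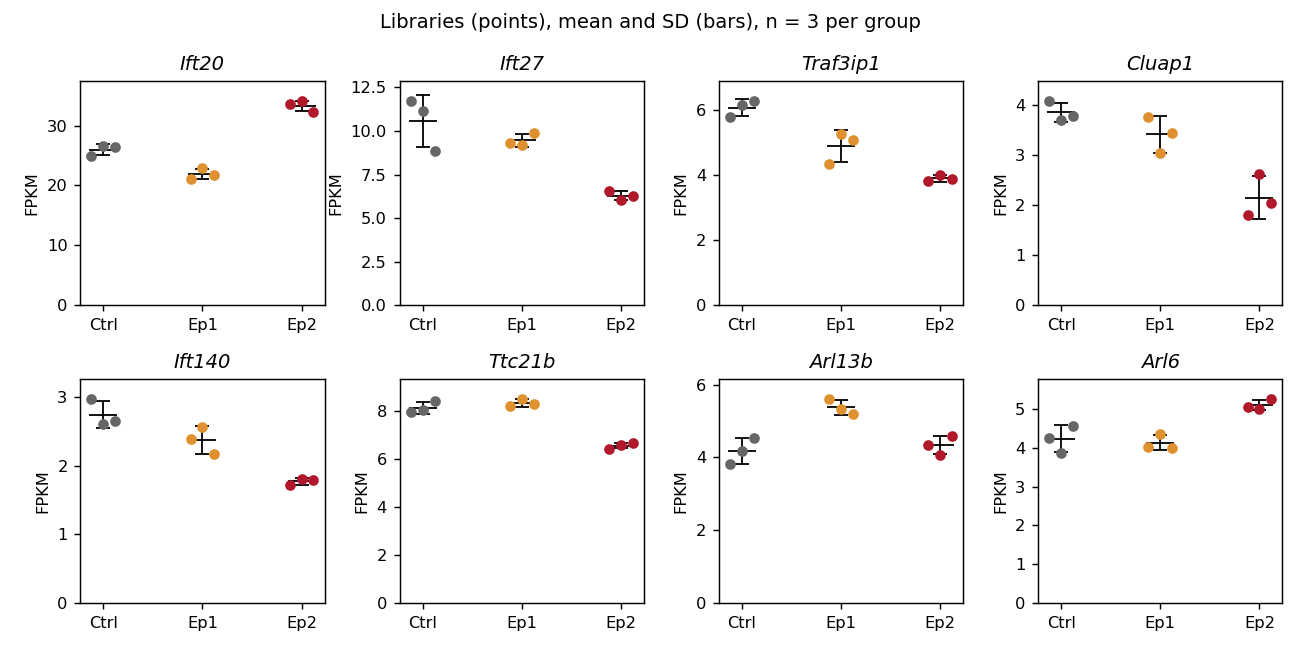
FPKM of 8 genes in each library (points) with the mean and SD of 3 libraries per group (bars), for Ctrl, Ep1 and Ep2, each axis starting at 0. Ift20 and Arl6 are highest in Ep2, Arl13b is highest in Ep1, and Ift27, Traf3ip1, Cluap1, Ift140 and Ttc21b are lowest in Ep2.

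In IFT-A, 3 of 6 genes fell in Ep2, beside 29.3% of all tested genes. All 6 had negative values, or 5 with median centring or a gene length correction (median log2 fold change -0.18). Ttc21b, the subunit known as IFT139 and the most abundant of the complex, was present at 7.95, 8.04 and 8.42 FPKM in Ctrl, at 8.19, 8.50 and 8.30 FPKM in Ep1 and at 6.43, 6.57 and 6.66 FPKM in Ep2. Ep1 overlapped Ctrl, and Ep2 stood below both (log2 fold change from Ctrl -0.27, SE 0.043, adjusted p = 0.000613). Ift140, a subunit of the IFT-A core, went from 2.97, 2.60 and 2.66 FPKM to 1.71, 1.80 and 1.79 FPKM (log2 fold change -0.43, SE 0.069, adjusted p = 0.000634).

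Ift122, another subunit of the IFT-A core, went from 1.85, 1.91 and 2.0 FPKM to 1.18, 1.49 and 1.52 FPKM (log2 fold change -0.29, SE 0.079, adjusted p = 0.0131), and the value was -0.47 with voom on recovered fragments. The groups did not overlap for Ift140 or Ift122. Ift43, Wdr35 and Wdr19 were not called, with log2 fold changes of -0.09, -0.08 and -0.03.

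BBSome genes moved in both directions. Of 6 tested core subunits, Bbs7 fell and Bbs9 rose, beside 29.3% lower and 23.9% higher of all tested genes. The median log2 fold change of these subunits was -0.04, or 0.00 with median centring or a gene length correction. Bbs7, at 2.07, 2.30 and 2.12 FPKM in Ctrl, was at 1.55, 1.81 and 1.71 FPKM in Ep2 (log2 fold change -0.23, SE 0.066, adjusted p = 0.0138; -0.36 with voom on recovered fragments), and the call was lost without Ctrl replicate 2 (adjusted p = 0.0577). Bbs9 had 2.18, 1.99 and 2.18 FPKM in Ctrl and 2.32, 2.73 and 2.69 FPKM in Ep2 (log2 fold change 0.20, SE 0.071, adjusted p = 0.0397). The groups were separate for both genes, but the Bbs9 call was lost without any one library except Ep2 replicate 1 (limma, adjusted p from 0.0610 to 0.127) and with the replicate number as a block (adjusted p = 0.0725).

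Ttc8, the subunit known as BBS8 and the most abundant of the BBSome, had 5.76, 5.85 and 6.22 FPKM in Ctrl, 5.87, 5.91 and 5.95 FPKM in Ep1 and 5.19, 6.01 and 5.70 FPKM in Ep2. These groups overlapped (log2 fold change of Ep2 -0.07, SE 0.057, adjusted p = 0.341). Bbs2, Bbs4 and Bbs5 were not called, with log2 fold changes of -0.17, 0.00 and -0.02, and Bbs4 overlaps the tested gene Adpgk on the opposite strand.

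Of 3 tested genes that assemble and recruit the BBSome, 1 fell and 1 rose, beside 29.3% lower and 23.9% higher of all tested genes. Bbs12 went from 5.32, 5.77 and 5.04 FPKM to 4.18, 4.28 and 3.34 FPKM (log2 fold change -0.38, SE 0.085, adjusted p = 0.00478), and Ep1, at 4.56, 5.12 and 4.51 FPKM, overlapped Ctrl. Arl6, the GTPase known as BBS3, went from 4.25, 3.87 and 4.57 FPKM to 5.05, 4.99 and 5.25 FPKM (log2 fold change 0.22, SE 0.061, adjusted p = 0.0123). All Ep2 libraries were above Ctrl for Arl6, but its call was lost without Ctrl replicate 2 (adjusted p = 0.0505) and with voom on recovered fragments (adjusted p = 0.0530). Bbs10 had 0.850 to 1.55 FPKM in Ctrl and 1.19 to 1.77 FPKM in Ep2 and was not called.

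Tulp3 was at 7.09, 7.19 and 6.84 FPKM in Ctrl, at 6.61, 6.76 and 6.87 FPKM in Ep1 and at 6.80, 5.94 and 6.33 FPKM in Ep2. The Ep2 libraries lay below those of Ctrl by a small margin, and the test was not passed (log2 fold change -0.13, SE 0.053, adjusted p = 0.0642). Arl13b, higher in Ep1, was not called in Ep2 (log2 fold change 0.05, adjusted p = 0.582).

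Across roles, libraries of Ep2 and Ctrl did not overlap for 17 members below Ctrl and 3 above it, against 32.7% and 27% of tested genes. In all, the members took 0.0602 to 0.0626% of fragments in Ctrl, 0.0571 to 0.0590% in Ep1 and 0.0538 to 0.0543% in Ep2, so the groups did not overlap in this share. Cilia were not measured, and bulk libraries cannot tell the number of ciliated cells from RNA per cell. This share is relative to all fragments and does not give amounts of RNA.

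Other measures moved with Ep2 as well. The summed FPKM of the 9 epithelial markers was 1029 to 1081 in Ctrl, 937 to 1041 in Ep1 and 1155 to 1373 in Ep2, with Krt7 and Esrp1 at 0 in all libraries. Krt18 (log2 fold change of Ep2 0.37, adjusted p = 0.000887) and Krt19 (0.70, adjusted p = 0.00127) rose, as did the low Epcam (0.61, adjusted p = 0.00154), while Krt8, the largest part of the sum, was not called (0.04, adjusted p = 0.530). The sum of the 15 endothelial markers was 11.4 to 11.9, 11.3 to 13.1 and 14.4 to 15.4 in the same order. Flt1 alone carried the difference, and without it the sum overlapped (4.39 to 5.20, 4.41 to 5.09 and 3.65 to 5.08). The sum of 8 glial, neuronal and leukocyte markers, none of which passed the filter, was 0.675 to 0.758, 0.634 to 0.798 and 1.11 to 1.39. Snap25 was its largest part in each library, at 0.473 to 0.519, 0.397 to 0.646 and 0.688 to 1.04 FPKM. The sum of 10 fibroblast and mural cell markers overlapped between groups (10.5 to 11.5, 9.06 to 10.6 and 10.5 to 12.7). Genes of the mitochondrial genome took 1.90 to 1.99% of fragments in Ctrl, 2.0 to 2.08% in Ep1 and 2.04 to 2.49% in Ep2. The part of these measures in the member results was not tested.

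The comparison of Ep2 with Ep1 asks how both light doses differ and shares the Ep2 libraries with the comparison above. Of 30 tested members, 10 were lower and 3 higher in Ep2, while 25.2% of tested genes were lower and 18.8% higher. With median centring the split was 8 lower and 4 higher, and with a gene length correction 7 lower and 4 higher. Calls in either direction made up 43.3% of members and 44% of tested genes, and on the log2(FPKM + 1) scale with all libraries none of the members, but 5.9% of tested genes, were called beyond an absolute log2 fold change of 0.6. Ift20 passed it with median centring (0.64), a gene length correction (0.65), a pseudocount of 0.1 (0.60) or voom (0.61), and without Ep1 replicate 2 (0.61) or Ep2 replicate 3 (0.60). Cluap1 passed it with a pseudocount of 0.1 (-0.65) or voom (-0.68), and voom called 4 members beyond it (Ift20, Cluap1, Ift88 and Bbs10) against 11% of tested genes. The median log2 fold change was -0.14 over the members and -0.01 over tested genes, with a negative value in 25 of 30 members and 52.2% of tested genes. With median centring the member median was -0.08 and that of tested genes 0.04, and with the filter at 5 FPKM the member median was -0.22. Libraries did not overlap for 15 members lower and 4 higher in Ep2, against 30.3% and 24.1% of tested genes.

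Ift20 differed most between the doses, at 21.1 to 22.9 FPKM in Ep1 and 32.3 to 34.0 FPKM in Ep2 (log2 fold change 0.58, SE 0.046, adjusted p = 1.99e-05). Its change thus differed in sign between the doses. Arl6, at 4.03, 4.35 and 4.01 FPKM in Ep1, was also higher in Ep2 (log2 fold change 0.25, SE 0.061, adjusted p = 0.00876). Bbs9, at 2.22, 2.17 and 1.94 FPKM in Ep1, was higher in Ep2 by 0.20 (SE 0.071, adjusted p = 0.0439), a call lost without any one library of these groups except Ep2 replicate 1 (adjusted p from 0.0559 to 0.146) and with the replicate number as a block (adjusted p = 0.0790).

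Ift27 was lower in Ep2 than in Ep1 (log2 fold change -0.52, SE 0.087, adjusted p = 0.00118). Ttc21b, which was not called in Ep1, was lower by -0.31 (SE 0.043, adjusted p = 0.000496). Cluap1, at 3.75, 3.03 and 3.45 FPKM in Ep1, was lower by -0.49 (SE 0.10, adjusted p = 0.00356). For these 3 genes every Ep2 library lay below every Ep1 library.

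Ift140, at 2.39, 2.57 and 2.17 FPKM in Ep1, was lower in Ep2 by -0.28 (SE 0.069, adjusted p = 0.00866), and Traf3ip1 was lower by -0.26 (SE 0.067, adjusted p = 0.0107). Bbs7, at 2.31, 2.25 and 2.22 FPKM in Ep1, was lower by -0.28 (SE 0.066, adjusted p = 0.00767; -0.42 with voom on recovered fragments). Arl13b was lower by -0.26 (SE 0.065, adjusted p = 0.0108). Arl13b was thus called higher in Ep1 than in either of the other groups, though the call against Ctrl depended on single libraries.

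Ift43 and Bbs2 were called only between the doses. Ift43, an IFT-A subunit, had 7.19, 7.43 and 8.09 FPKM in Ctrl, 8.46, 8.45 and 8.03 FPKM in Ep1 and 6.67, 6.96 and 7.44 FPKM in Ep2 (log2 fold change -0.22, SE 0.057, adjusted p = 0.0131). Bbs2 had 3.12, 3.44 and 3.43 FPKM in Ep1 and 2.76, 2.65 and 3.0 FPKM in Ep2 (log2 fold change -0.19, SE 0.068, adjusted p = 0.0482). Ep1 and Ep2 did not overlap for either gene, but the Ift43 call was lost with voom (adjusted p = 0.0621) and with a gene length correction (adjusted p = 0.0795). That of Bbs2 was lost in 10 of 13 alternatives. These included leaving out Ep1 replicate 2, Ep1 replicate 3, Ep2 replicate 1 or Ep2 replicate 2 (limma, adjusted p from 0.0868 to 0.137). The Bbs2 call was also lost with the replicate number as a block (adjusted p = 0.0827) and with voom (adjusted p = 0.0910). Median centring (adjusted p = 0.140) and a gene length correction (adjusted p = 0.153) lost it too.

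The Ift74 libraries of Ep1 (5.55, 6.33 and 7.36 FPKM) and Ep2 (4.35, 4.51 and 5.58 FPKM) overlapped although the gene was called (log2 fold change -0.35, SE 0.114, adjusted p = 0.0321). This call was lost without Ep1 replicate 2, Ep1 replicate 3, Ep2 replicate 1 or Ep2 replicate 2 (adjusted p from 0.0754 to 0.117). It was also lost with median centring (adjusted p = 0.0589) and a gene length correction (adjusted p = 0.0726), and in 7 of 14 alternatives in all. Over all 3 comparisons, 10 members were called in none, and the same count over all tested genes was not made.

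To set the members beside the rest of the cilium, 8 further lists with 117 genes were used, of which 80 passed the filter. In Ep2 against Ctrl, 33 of these 80 fell and 13 rose, beside 29.3% and 23.9% of all tested genes. In Ep1 against Ctrl, 4 fell and 4 rose, near the 4.97% and 6.32% of all tested genes. Between the doses, 24 were lower and 8 higher in Ep2, beside 25.2% and 18.8%.

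**Figure D4:**
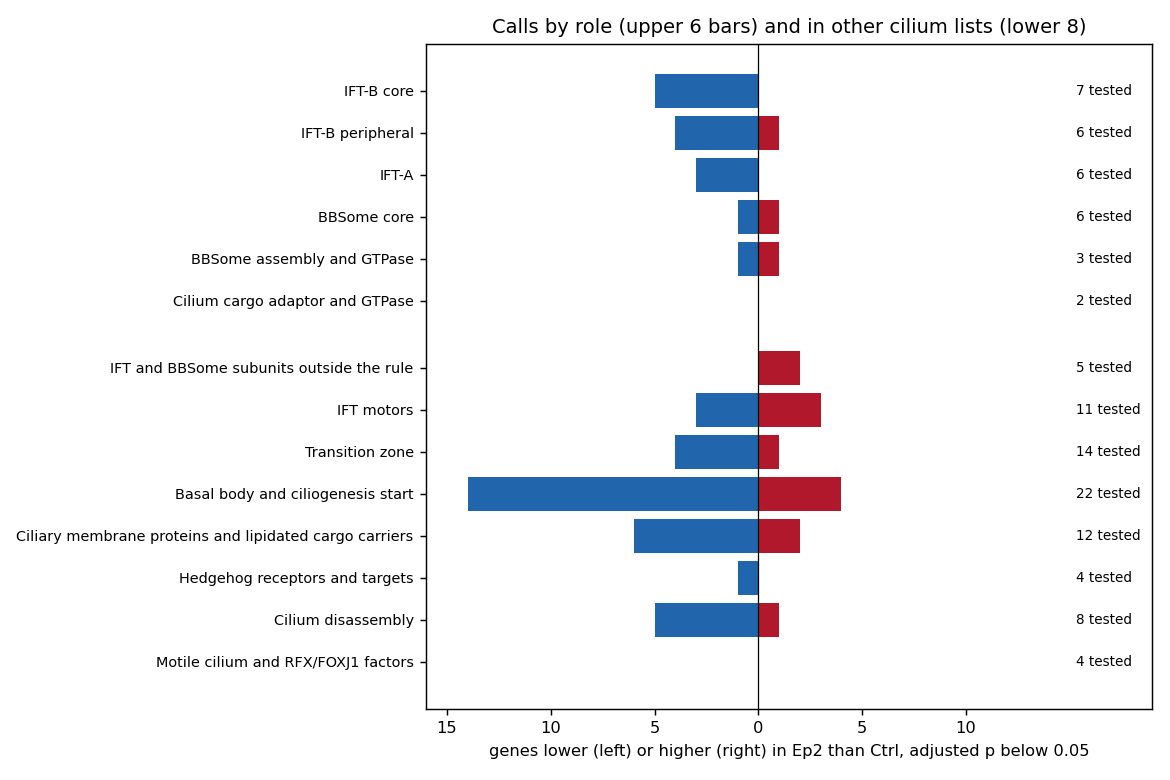
Number of genes lower (blue, left) or higher (red, right) in Ep2 than in Ctrl at an adjusted p below 0.05, for the 6 roles of the members and for 8 other cilium lists, with the number tested at the right. The longest bar is that of the basal body list, with 14 of 22 genes lower, and IFT-B has 5 of 7 core and 4 of 6 peripheral genes lower. Of all tested genes, 29.3% were lower and 23.9% higher.

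Among 5 tested IFT and BBSome subunits that the name rule left out, Ttc26 and Hspb11, both of IFT-B, rose in Ep2, against the direction of most members. A rise was called for 23.9% of all tested genes. None of the 5 had a negative value in Ep2 against Ctrl. Their median log2 fold change was 0.24, or 0.29 with median centring and 0.32 with a gene length correction. Ttc26 went from 0.790 ± 0.085 to 1.18 ± 0.148 FPKM (SD, n = 3 libraries; log2 fold change 0.29, limma adjusted p = 0.0252), a call lost without Ctrl replicate 2, Ctrl replicate 3, Ep2 replicate 1 or Ep2 replicate 3 (adjusted p from 0.0638 to 0.0738). For Hspb11, from 3.05 ± 0.252 to 3.78 ± 0.360 FPKM, the log2 fold change was 0.24 (limma adjusted p = 0.0327). The call of Hspb11 was not followed through the alternatives.

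Of 11 tested genes of the IFT motors, 3 rose and 3 fell, near the 23.9% higher and 29.3% lower of all tested genes. Kif3b, a subunit of the kinesin that pulls trains to the tip, rose from 8.94 ± 0.285 to 11.2 ± 0.243 FPKM (SD, n = 3 libraries; log2 fold change 0.30, limma adjusted p = 0.000324). Wdr34, an intermediate chain of the dynein of IFT, fell from 7.54 ± 0.139 to 4.45 ± 0.313 FPKM (log2 fold change -0.65, limma adjusted p = 0.000235). The median log2 fold change was 0.07 over the motor genes, 0.12 with median centring and 0.14 with a gene length correction.

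Transition zone genes, which form the gate at the base of the cilium, fell in 4 of 14 cases, near the 29.3% of all tested genes, and rose in 1. Tmem216 fell from 4.82 ± 0.450 to 3.20 ± 0.109 FPKM (log2 fold change -0.47, limma adjusted p = 0.000853), and Iqcb1 rose from 3.48 ± 0.355 to 4.65 ± 0.299 FPKM (log2 fold change 0.34, limma adjusted p = 0.00391). Genes of the basal body and of the start of ciliogenesis fell in 14 of 22 cases and rose in 4. This stood beside 29.3% lower and 23.9% higher of all tested genes, and the median of the list was -0.26. Cep131, a centriolar satellite protein, fell from 3.28 ± 0.356 to 1.20 ± 0.169 FPKM (log2 fold change -0.96, limma adjusted p = 5.36e-05), further than any member. Rab10, a GTPase of membrane traffic, rose from 36.0 ± 1.17 to 47.2 ± 1.11 FPKM (log2 fold change 0.38, limma adjusted p = 0.000111).

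Ciliary membrane proteins and carriers of lipidated cargo fell in 6 of 12 cases and rose in 2, beside 29.3% and 23.9% of all tested genes. Unc119b, a carrier of myristoylated proteins, fell from 16.8 ± 0.356 to 12.2 ± 0.346 FPKM (log2 fold change -0.43, limma adjusted p = 3.2e-05), and Arl2bp, a partner of ARL2, rose from 41.5 ± 1.38 to 55.6 ± 2.29 FPKM (log2 fold change 0.41, limma adjusted p = 5.32e-05). Of 4 tested Hedgehog genes, Smo, the signal transducer that enters the cilium, fell from 13.5 ± 0.363 to 8.60 ± 0.299 FPKM (log2 fold change -0.59, limma adjusted p = 1.35e-05). Ptch1, a target of the pathway, was not called (log2 fold change 0.05, adjusted p = 0.427).

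In the list of cilium disassembly, 5 of 8 genes fell (Plk1, Nek2, Aurka, Nde1 and Kif24) and Kif2a rose. The shares over all tested genes were 29.3% lower and 23.9% higher. Plk1 fell from 68.8 ± 2.83 to 31 ± 3.16 FPKM (log2 fold change -1.13, limma adjusted p = 4.03e-06), and Kif2a rose from 12.8 ± 1.12 to 18.2 ± 0.907 FPKM (log2 fold change 0.48, limma adjusted p = 0.000266). Plk1, Nek2 and Aurka are best known as kinases of mitosis. The 4 tested genes of motile cilia and of the RFX factors that bind the X-box had log2 fold changes between -0.19 (Rfx1, adjusted p = 0.0781) and 0.04 (Rfx5, adjusted p = 0.679).

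Some members share their start region or their position with a neighbour. Ift20 starts 29 bases from Tnfaip1, a gene on the opposite strand at 28.2 to 34.2 FPKM, and 8 members have such a head-to-head gene within 1000 bases. A total of 15 members overlap another listed gene and 3 a tested one, and whether the counting used strand is not given, so reads in shared stretches cannot be assigned.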

How the data were processed

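Total RNA of 9 libraries was sequenced by the authors (Illumina, paired ends). They deposited one FPKM value per gene and library, which is scaled by gene length and library total. The submitters' processing notes name Bowtie 0.12.2 and mm8, and the methods name GRCm39, while the listed positions of all 31 members overlapped those of GRCm38 (7 of 31 on GRCm39), so positions refer to GRCm38. The counting tool was not given in the sources used here. The 9 single tables equalled the joint table.

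FPKM times gene length gave whole fragments within 0.05 for 100% of values. The 11727 genes that reached 1 FPKM in 3 or more libraries were fitted as log2(FPKM + 1) in one limma 3.58.1 model of 9 libraries (lmFit, eBayes with trend and robust, R 4.3.3), which understates changes of low genes, with Benjamini-Hochberg adjustment within each of 3 comparisons and a threshold of 0.05. Pairs of libraries of a group differed by more than counting noise, most of all in Ep2. The chi-square of fragments per degree of freedom was 2.81 to 4.99 in Ctrl, 3.19 to 5.66 in Ep1 and 5.00 to 15.2 in Ep2. The model shared one estimate of spread per gene over all groups.

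The members and lists were chosen with earlier results of these data known. Values in every library were given for called members whose libraries did not overlap, at most 12 per comparison by adjusted p, and for the most abundant member of each role. From other lists, the gene with the smallest adjusted p in each direction in Ep2 was named, and further names were chosen after their values were seen. Promoters were those of up to 4 members with the smallest adjusted p. Alternatives were median centring, no filter, a filter at 5 FPKM, a fit with the replicate number as a block, 0.1 in place of 1 as pseudocount, only the groups compared, voom on genes of at least 10 fragments, a gene length correction, a minimum log2 fold change of 0.6 and leaving out each library. The minimum fold change together with each other alternative was added after the data were seen. Python 3.11.15 with numpy 2.4.6, pandas 2.3.3, scipy 1.17.1 and matplotlib 3.10.9 was used.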

Additional observations from a re-analysis of the deposited data

Results flagged for a closer look

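The change from Ctrl differed between the light doses for 13 members, by the test of Ep2 against Ep1 in limma (adjusted p below 0.05), since both doses share Ctrl. These were 43.3% of the tested members, near the 44% of all tested genes called in the same test. The difference in log2 fold change, Ep2 minus Ep1, was -0.52 for Ift27, -0.49 for Cluap1, -0.35 for Ift74, -0.31 for Ttc21b, -0.28 for Ift140, -0.28 for Bbs7, -0.26 for Traf3ip1, -0.26 for Arl13b, -0.22 for Ift43 and -0.19 for Bbs2. It was 0.20 for Bbs9, 0.25 for Arl6 and 0.58 for Ift20. Ift20 was called in opposite directions at the 2 doses, and Arl13b was called only at the lower one. Their Ep1 calls against Ctrl were lost in 3 of 14 alternatives for Ift20 and in 6 of 14 for Arl13b. Of the 13, 9 kept the call of Ep2 against Ep1 under each alternative that tested them apart from the minimum fold change. Ift74, Ift43, Bbs2 and Bbs9 did not.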

How the results depend on the processing

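Counts are of members higher and lower. With a minimum log2 fold change of 0.6 they were 0 and 0 in Ep1 against Ctrl, 0 and 2 in Ep2 against Ctrl, and 0 and 0 in Ep2 against Ep1, where limma gave an unadjusted p below 0.05 for 5, 19 and 17 members. Without the filter, Ep1 against Ctrl had 0 higher and 1 lower. The filter at 5 FPKM left 12 members, of which 1 rose and 6 fell in Ep2 against Ctrl and likewise 1 and 6 in Ep2 against Ep1. Leaving out one library gave 0 to 1 higher and 0 to 2 lower in Ep1 against Ctrl, 1 to 3 and 11 to 13 in Ep2 against Ctrl (1 higher without Ctrl replicate 2), and 2 to 3 and 8 to 11 in Ep2 against Ep1. With the replicate block the counts were 1 and 2, 2 and 12, and 2 and 10, respectively. Same-numbered libraries of different groups had correlations of their deviations from the group means between -0.06 and 0.07 (9 pairs), other pairs between -0.11 and 0.15 (18 pairs), and not every library correlated best with its own number. Deviations from a mean of 3 libraries depend on each other, so these correlations cannot decide whether same-numbered libraries share a batch. No called value changed sign under these alternatives. Of the single-member values under them, 367 stayed past the threshold and 79 did not, and the cause was not tested. For the genes of other lists named for the smallest adjusted p in a direction, 159 values stayed and 5, all of Ttc26, did not. Low levels limit the precision: tested members had as few as 41 fragments in a library.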
